A study of Rattus norvegicus with 6 samples.

Results

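The C/EBP family of transcription factors was followed in Suz12-depleted rat intestinal cells through 7 genes, Cebpa, Cebpb, Cebpd, Cebpe, Cebpg, Cebpz and Ddit3. Members were taken as every probe set, the group of short probes that reports on a transcript, whose annotation gives exactly 1 of these symbols. This gave 14 of 31042 probe sets, and 7 of 14217 genes with a probe set of their own: 5 probe sets for Cebpa, 3 for Cebpd, 2 for Cebpg and 1 for each of the other members. ShSuz12 cells (3 samples) were IEC-6 cells that carried a lentiviral short hairpin RNA against Suz12, a core subunit of the Polycomb repressive complex that methylates lysine 27 of histone H3. Control cells (3 samples) were IEC-6 cells that carried a scrambled hairpin from the same kind of vector. IEC-6 is a non-tumorigenic line from the crypts of young rat small intestine, grown in serum-containing medium. Both groups were selected with puromycin after infection. No inflammatory stimulus was named for the array samples, and the cell density of their cultures was not given. Each group is 1 selected population and ShSuz12 rests on 1 hairpin clone, with RNA from 3 independent experiments.

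C/EBP proteins bind DNA as dimers through a basic region and a leucine zipper, and recognise a palindrome built of TTGC half-sites. C/EBP beta and delta are switched on by cytokines and drive acute phase and chemokine genes, C/EBP alpha goes with growth arrest and differentiation in liver, fat and myeloid cells, and C/EBP epsilon completes granulocyte maturation. C/EBP gamma and Ddit3 (CHOP) pair with the others and with ATF4, and can hold them back or redirect them, while Cebpz, a nucleolar CCAAT-binding protein, carries the family's name without its zipper. The question put to the arrays was which of these RNAs differed after loss of Suz12. A further question was how the known targets, regulators and partners of the family stood beside them.

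Promoters of 6 of the 7 members were matched by symbol in a RefSeq table for the GRCr8 build, which covers 250 bases before and 50 after the annotated start. Cebpd had no entry there, so its promoter was not searched for any element. The pair below is printed because Cebpb was higher and Cebpg lower in ShSuz12 cells. The promoters differ in the elements marked, but both also held the GC box GGGCGG at 2 places. That box was found in 33.1% of all promoters. A link between these elements and the directions of change was not tested. Cebpb lies at chr3:176816755-176817054 on the plus strand and Cebpg at chr1:96829687-96829986 on the minus strand, both windows being written 5′ to 3′ along the gene. Capitals mark, in Cebpb, the ATF and CREB half-site TGACG read on either strand and the TATA box TATAAA, and in Cebpg the CCAAT box, which reads ATTGG on the printed strand.
Cebpb: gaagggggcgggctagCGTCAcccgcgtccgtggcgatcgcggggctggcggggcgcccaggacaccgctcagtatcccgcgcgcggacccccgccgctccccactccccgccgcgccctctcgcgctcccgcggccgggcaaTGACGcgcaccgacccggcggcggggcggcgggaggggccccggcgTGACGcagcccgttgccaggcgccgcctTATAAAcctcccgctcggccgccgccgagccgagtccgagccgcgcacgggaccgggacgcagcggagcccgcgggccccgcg
Cebpg: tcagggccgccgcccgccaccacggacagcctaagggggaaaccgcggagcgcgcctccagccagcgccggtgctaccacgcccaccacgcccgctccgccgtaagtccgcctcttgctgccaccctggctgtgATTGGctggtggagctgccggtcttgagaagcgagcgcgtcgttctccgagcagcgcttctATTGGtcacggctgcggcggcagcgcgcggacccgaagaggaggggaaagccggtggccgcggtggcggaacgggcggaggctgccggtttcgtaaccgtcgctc

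Cebpb held TGACG at 3 places, -107 to -103 and -61 to -57 on the printed strand and -234 to -230 on the other, with TATAAA at -33 to -28 (positions counted from +1 at the annotated start, with no position 0). Among 33465 rat promoters of the same length, 21.2% held TGACG and 14.2% held TATAAA on either strand. Cebpg held CCAAT on the other strand at -116 to -112 and at -55 to -51, without a match to TATAAA in this window. CCAAT was found in 37.5% of all promoters, and Ddit3 held it once, on the other strand at -76 to -72. Cebpa held TATAAA at -35 to -30. The C/EBP motif TTGCNNAA, which spells out only the first TTGC half-site in full, was present in 10.6% of promoters. Among the 6 members it was matched only in Cebpz, at -180 to -173 on the other strand. The Stat element TTCNNNGAA, present in 8.87%, was matched only in Cebpe, at -213 to -205. These matches describe letters and not bound sites.

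CpG content also separated the members. The Cebpb window had 56 CpG dinucleotides and 81.0% GC, and 99.8% of all promoters had fewer CpGs. Cebpg had 40 CpGs and 71.0% GC, Cebpa had 28 and 68.7%, Cebpz had 19 and 58.0%, and Ddit3 had 23 CpGs. The Cebpe promoter stood apart with 4 CpGs, under the median of 7 over all promoters, although its GC content of 56.0% was above the median of 51.7%. Cebpa and Cebpg are adjacent protein-coding genes on chromosome 1.

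All values below are log2 RMA values as deposited. Groups were set against each other with limma over the whole table of 31042 probe sets, with Benjamini-Hochberg adjustment, and "called" means an adjusted p under 0.05. Suz12, the targeted gene, had values of 5.82, 5.77 and 5.91 on the ShSuz12 arrays, against 8.45, 8.55 and 8.77 on the control arrays (log2 fold change -2.76, standard error 0.09, adjusted p = 2.78e-07 from limma). Array medians lay between 6.26 and 6.27 for ShSuz12 and between 6.15 and 6.17 for control, and across probe sets Pearson's r was 0.997 to 0.998 within groups and 0.979 to 0.980 between them. No 2 arrays held the same values. With 3 arrays a group an exact permutation test cannot go below p = 0.1, so single values were judged by the fit across all probe sets, whose p-values measure the spread between experiments of 1 population per group.

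Cebpd and Cebpb, the cytokine-induced members, rose in ShSuz12 cells, while Cebpg and Cebpe fell by less. The calls of Cebpg and Cebpe were lost in most fits with 1 array left out. Over the 14 probe sets, 3 were higher, 3 were lower and 8 were not called. Among all probe sets 14.8% were higher and 19.5% lower, so the number of C/EBP probe sets called is not in itself a result about the family. Of all called probe sets 43.2% were higher as deposited and 23.3% after each array's median was subtracted, so small changes are read against that shift, while Cebpb (0.52) and Cebpd (0.88 at both brighter probe sets) stayed called under it. By the brightest probe set of each gene, 2 of 7 genes were higher and 2 lower, beside 17.1% higher and 23.3% lower over all genes. None of the 14 reached 2-fold at an adjusted p under 0.05, nor at an unadjusted p under 0.05 from limma or by the methods' t-test, where 3.1% of all probe sets were at least 2-fold higher and 0.396% at least 2-fold lower (3.82% and 0.422% of genes). The groups did not overlap in 8 of the 14, a share that the background of 47.5% of all probe sets makes unremarkable. The median log2 fold change of the 7 genes was -0.01, beside -0.05 over all genes.

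**Figure D1:**
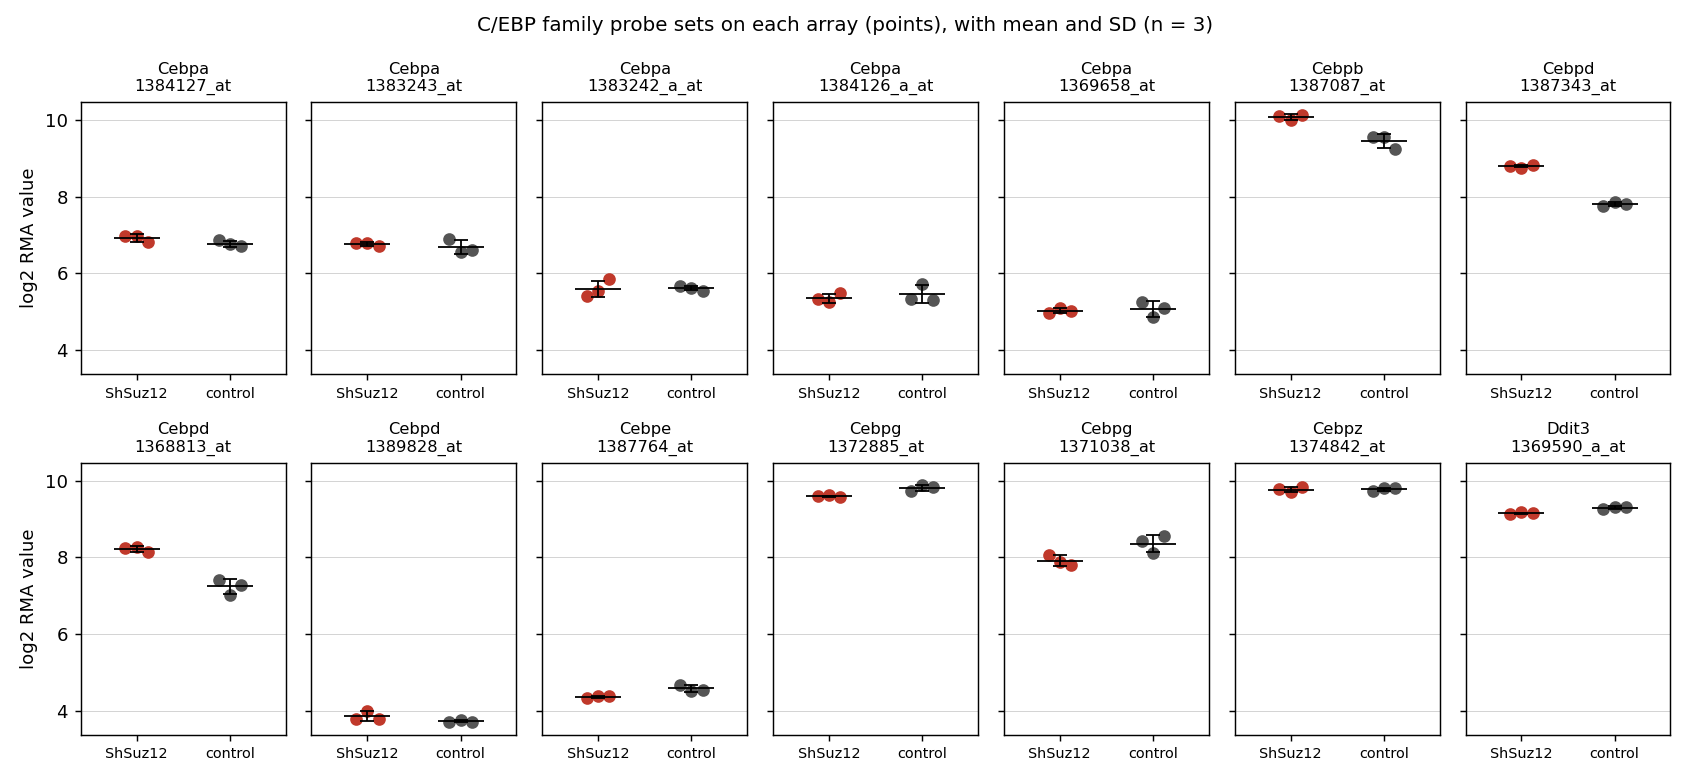
Log2 RMA value (vertical axis) of each of the 14 C/EBP family probe sets on the 3 ShSuz12 arrays (red) and the 3 control arrays (grey), with the mean and SD of each group in black. The ShSuz12 points of Cebpb and of the first 2 Cebpd panels lie above every control point, and levels of different panels are not comparable because probes differ in affinity.

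Cebpd encodes C/EBP delta, an early cytokine-induced activator of acute phase genes. Its brightest probe set, 1387343_at, had values of 8.79, 8.75 and 8.82 on the ShSuz12 arrays, against 7.75, 7.86 and 7.81 on the control arrays. The groups were separated by 0.89 with no overlap, and the 3 arrays of each group lay close together. The means were 8.79 ± 0.03 in ShSuz12 and 7.81 ± 0.05 in control cells (SD, n = 3 each), a log2 fold change of 0.98 or 1.98-fold (standard error 0.05, 95% interval 0.86 to 1.11, adjusted p = 5.65e-06 from limma). A second Cebpd probe set, 1368813_at, had values of 8.25, 8.27 and 8.14 in ShSuz12 and of 7.40, 7.03 and 7.29 in control cells. Here too every ShSuz12 array was above every control array, and the log2 fold change was again 0.98 (standard error 0.10, 95% interval 0.76 to 1.20, adjusted p = 1.35e-04 from limma). The third, 1389828_at, did not follow. It was dim, at percentile 12.9 of the ShSuz12 arrays and 10 of the control arrays, with values of 3.77, 4.00 and 3.79 in ShSuz12, against 3.71, 3.75 and 3.70 in control cells. Its log2 fold change of 0.13 was not called (95% interval -0.03 to 0.29, adjusted p = 0.203 from limma), and the sequence its probes read was not used here. A mean over the 3 Cebpd probe sets gave 0.70. The brightest Cebpd probe set was just under 2-fold as deposited and had a log2 fold change of 1.00, past the 2-fold limit, after a second quantile normalization. Leaving out ShSuz12 replicate 3 or any control replicate brought 1 of the brighter 2 probe sets past 2-fold, within log2 fold changes of 0.88 to 1.06 for the pair. Arrays read the RNA of a whole culture, so a higher level in each cell and a larger share of expressing cells cannot be told apart.

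Cebpb encodes C/EBP beta, which works with NF-kappaB and Stat3 at cytokine, chemokine and acute phase genes. Its single probe set had values of 10.11, 9.99 and 10.13 on the ShSuz12 arrays, against 9.55, 9.56 and 9.25 on the control arrays. The lowest ShSuz12 array was 0.43 above the highest control array, and most of the spread within a group came from control replicate 3. The means were 10.07 ± 0.08 in ShSuz12 and 9.45 ± 0.18 in control cells (SD, n = 3 each), a log2 fold change of 0.62 or 1.54-fold (standard error 0.09, 95% interval 0.41 to 0.84, adjusted p = 0.00127 from limma). With each array left out in turn the value ran from 0.52 to 0.68 and the call held in all 6 cases, the lowest value being that without control replicate 3. The probe set stood at percentile 92.5 of the ShSuz12 arrays and 87.5 of the control arrays. Because activating and inhibitory forms of C/EBP beta come from the same messenger through different start codons, the array does not show which form was made.

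**Figure D2:**
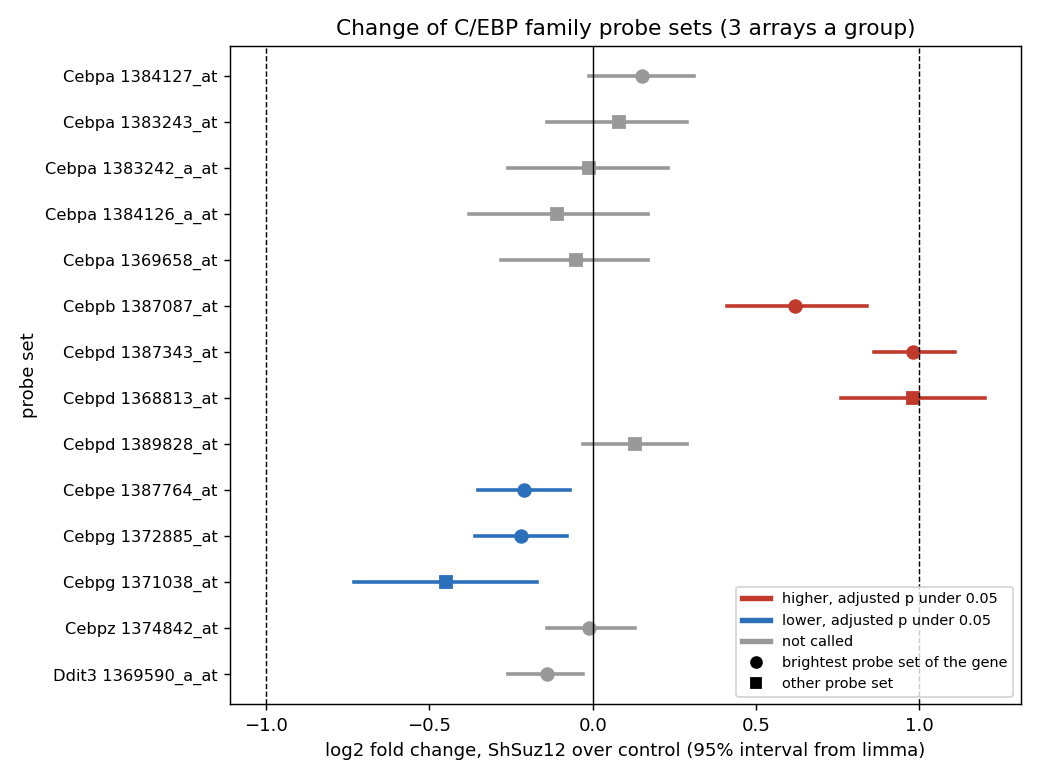
Log2 fold change of ShSuz12 over control (horizontal axis) with its 95% interval from limma for each C/EBP family probe set (vertical axis), red for higher, blue for lower and grey for not called, with dashed lines at 2-fold. Cebpb (0.62) and the brighter Cebpd probe sets (both 0.98) lie to the right, whereas the called decreases of Cebpe and Cebpg stay between -0.45 and -0.21.

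Cebpg encodes C/EBP gamma, a short member that lacks an activation domain of its own and pairs with ATF4 at amino acid and redox genes. Its brightest probe set, 1372885_at, had values of 9.60, 9.62 and 9.57 on the ShSuz12 arrays, against 9.72, 9.89 and 9.83 on the control arrays. The groups did not overlap but were only 0.10 apart, with control replicate 1 nearest. The log2 fold change was -0.22 (standard error 0.06, 95% interval -0.36 to -0.08, adjusted p = 0.0248 from limma). The other probe set, 1371038_at, gave 8.06, 7.89 and 7.79 in ShSuz12 and 8.43, 8.11 and 8.55 in control cells. These groups were 0.05 apart, between ShSuz12 replicate 1 and control replicate 2, and the log2 fold change was -0.45 (standard error 0.12, 95% interval -0.73 to -0.17, adjusted p = 0.0206 from limma). Both probe sets thus moved down, by unequal amounts. Neither call was stable to the loss of an array. For 1372885_at only the fit without control replicate 1 kept it (adjusted p = 0.0146), and the other 5 fits gave 0.0577 to 0.0795. For 1371038_at the fits without ShSuz12 replicate 1 (0.0226) and without control replicate 2 (0.00323) kept it, and the other 4 gave 0.0604 to 0.0745. With the methods' t-test the adjusted p was 0.0537 for 1372885_at and 0.115 for 1371038_at.

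Cebpe encodes C/EBP epsilon, the granulocyte member. Values were 4.33, 4.39 and 4.37 on the ShSuz12 arrays, against 4.68, 4.52 and 4.53 on the control arrays. All 3 ShSuz12 arrays were below the control arrays by at least 0.13, and control replicate 1 was the highest. The log2 fold change was -0.21 (standard error 0.06, 95% interval -0.35 to -0.07, adjusted p = 0.028 from limma). This was a shift within the dim range of the array, at percentile 23.1 for ShSuz12 and 27.4 for control, where a value above the probes' background was not established. Only the fits without control replicate 2 (adjusted p = 0.0292) and without control replicate 3 (0.0417) kept the call. It was lost without control replicate 1 (0.0762) and without ShSuz12 replicate 1 (0.0873), 2 (0.0608) or 3 (0.0712). Granulocyte genes that C/EBP epsilon and C/EBP alpha activate in bone marrow were likewise dim: all 10 measured of 16 listed were under the array median in both groups. Of these 10, S100a9 (0.31) and S100a8 (0.21), calcium-binding proteins of neutrophils, were higher and Itgam (-0.25), an integrin of myeloid cells, was lower. That is 20% higher and 10% lower, beside 17.1% and 23.3% of all genes. The number higher was 2 without ShSuz12 replicate 2 and 1 with any other single array left out, and the number lower was 0 without ShSuz12 replicate 3 or control replicate 1 and 2 without control replicate 3. Median subtraction gave 1 higher and 4 lower.

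Ddit3 encodes CHOP, the stress-induced member whose altered basic region keeps it off the usual C/EBP site. It had values of 9.13, 9.18 and 9.16 on the ShSuz12 arrays, against 9.26, 9.32 and 9.31 on the control arrays. The groups did not overlap, with a gap of 0.08. The log2 fold change of -0.14 was not called (standard error 0.05, 95% interval -0.26 to -0.03, adjusted p = 0.0607 from limma). The interval leaves room for a decrease no larger than 0.26. The call depended on the setting, the methods' t-test giving an adjusted p of 0.0214 and a limma fit on probe sets above the 40th percentile giving 0.0269.

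Cebpa encodes C/EBP alpha, the member tied to cell cycle exit, and none of its 5 probe sets was called. The brightest, 1384127_at, had values of 6.98, 6.98 and 6.81 in ShSuz12, against 6.87, 6.75 and 6.71 in control cells. The groups overlapped, and the log2 fold change was 0.15 (95% interval -0.01 to 0.31, adjusted p = 0.147 from limma). The other 4 had log2 fold changes of 0.08 (1383243_at, 95% interval -0.14 to 0.29), -0.01 (1383242_a_at, -0.26 to 0.23), -0.11 (1384126_a_at, -0.38 to 0.17) and -0.05 (1369658_at, -0.28 to 0.17). All of these groups overlapped too, and 3 of the 5 probe sets were under the array median. The widest of these intervals reaches a decrease of 0.38, so a change of signal of the size seen for Cebpd lies outside each of them. A signal above background was not established for the 3 probe sets under the array median. Those 3 therefore cannot exclude such a change in the RNA. Cebpz, with values of 9.78, 9.70 and 9.84 in ShSuz12 and of 9.73, 9.81 and 9.80 in control cells, had overlapping groups and a log2 fold change of -0.01 (95% interval -0.14 to 0.13, adjusted p = 0.925 from limma).

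**Figure D3:**
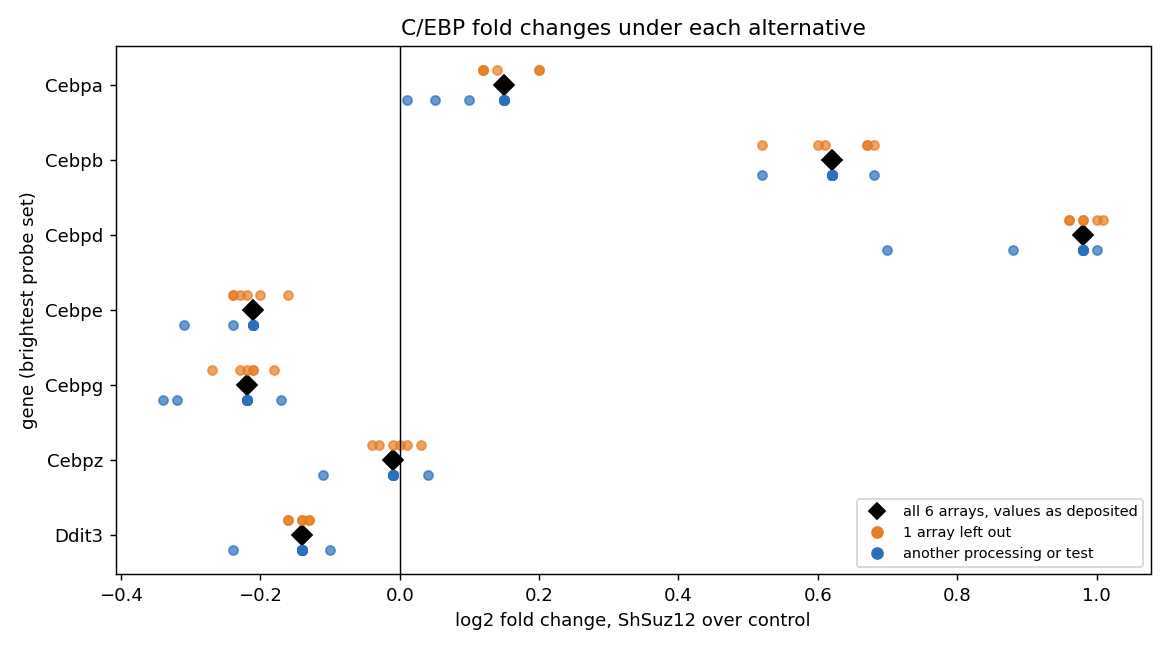
Log2 fold change of ShSuz12 over control (horizontal axis) of the brightest probe set of each C/EBP gene (vertical axis) with all 6 arrays as deposited (black diamond), with 1 array left out (orange) and under other normalizations, filters or tests (blue; the mean over probe sets where a gene has several). Cebpb stays between 0.52 and 0.68 and Cebpd between 0.70 and 1.01, whereas Cebpz crosses 0.

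Known inflammatory and acute phase targets of C/EBP beta and delta included the largest increases among the lists set beside the family. Of 32 measured genes (36 listed), 16 were higher, 2 were lower and 14 were not called, with 11 at least 2-fold higher. The median log2 fold change was 0.21, beside -0.05 over all genes. In the list 50% were higher and 6.25% lower, beside 17.1% and 23.3% of all genes. Of the 32 genes, 16 were under the array median in both groups, Il6 and Socs3 included, which were called higher. The number lower was 5 with median subtraction and 1 with any single ShSuz12 array, control replicate 2 or control replicate 3 left out, while 15 or 16 were higher and 11 at least 2-fold higher in each of these fits. Lbp, which carries bacterial lipopolysaccharide to CD14, had values of 11.31, 11.29 and 11.27 on the ShSuz12 arrays, against 5.90, 6.09 and 6.08 on the control arrays (log2 fold change 5.26, standard error 0.07, adjusted p = 6.46e-09 from limma). A2m, a protease inhibitor of the rat acute phase, had 9.36, 9.36 and 9.35 in ShSuz12 and 4.11, 4.46 and 4.30 in control cells (5.07, standard error 0.09, adjusted p = 1.55e-08 from limma). For both genes the 3 ShSuz12 arrays lay close together and far above the control arrays, where A2m was at percentile 21.9.

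Chemokines and other secreted defence proteins made up most of the rest of this group. Log2 fold changes were 4.16 for Ccl2 and 3.40 for Ccl20, chemokines for monocytes and for dendritic cells and lymphocytes, and 2.32 for Ccl5 and 2.00 for Cxcl1, which attract T cells and neutrophils. The antibacterial siderophore binder Lcn2 had values of 6.55, 7.18 and 6.73 in ShSuz12, against 4.54, 4.77 and 4.88 in control cells (2.08, standard error 0.16, adjusted p = 3.48e-05 from limma). Its ShSuz12 arrays spread more than those of the other genes named here, yet all 3 were above the control arrays. The complement component C3 (2.20) and haptoglobin Hp (0.79), listed as targets like Lcn2, were higher too. Other listed targets were not called, among them Orm1 (-0.05), Crp (-0.07), Il1b (-0.07), Nos2 (-0.01), Tnf (-0.05), Csf3 (-0.05) and Ptgs2 (-0.15). Of the uncalled genes just named, all but Nos2 were under the array median in both groups. Slpi, a leukocyte protease inhibitor, had 10.15, 10.17 and 10.02 in ShSuz12 and 6.81, 6.85 and 6.68 in control cells (3.33). Il6 rose by 0.51 but stayed dim, with 4.20, 4.02 and 4.11 in ShSuz12, against 3.64, 3.55 and 3.62 in control cells. Cxcl2, another neutrophil chemokine, had overlapping groups (0.21, 95% interval -0.03 to 0.45, adjusted p = 0.155 from limma). Cd14 (-0.23), the receptor that takes lipopolysaccharide from Lbp, and the fibrinogen chain Fga (-0.35, dim, with another probe set not called at -0.09) fell. These lists were written with earlier results of the arrays known, several of the named chemokines having been singled out by the study itself, so their direction is no independent evidence.

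**Figure D4:**
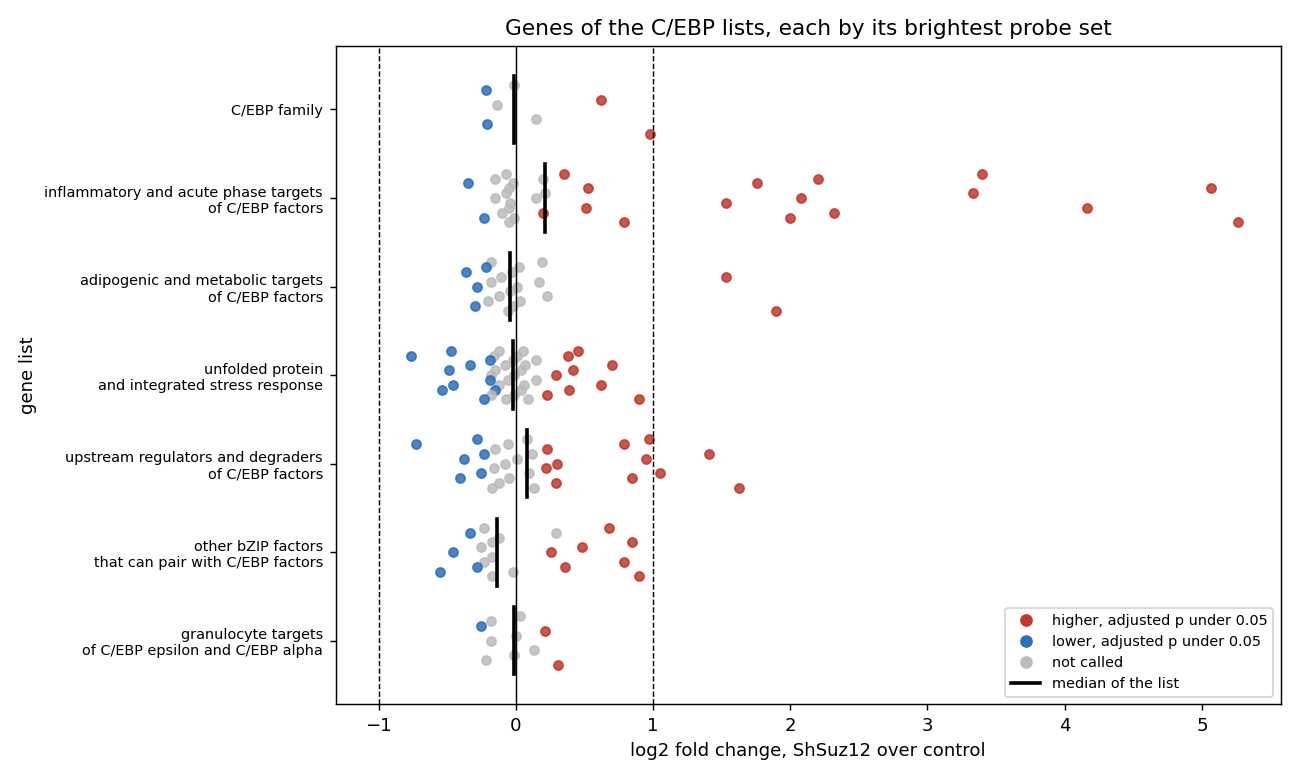
Log2 fold change of ShSuz12 over control (horizontal axis) of each measured gene, by its brightest probe set, in the C/EBP family and the 6 lists set beside it (vertical axis, vertical jitter only for legibility), red for higher, blue for lower and grey for not called, with the list median as a black bar and dashed lines at 2-fold. The inflammatory and acute phase list reaches 5.26 for Lbp and has a median of 0.21, whereas the medians of the other lists lie between -0.14 and 0.08.

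Of 21 measured adipogenic and metabolic targets of C/EBP alpha and beta, 2 were higher, 4 were lower and 15 were not called, with a median of -0.04. Both shares, 9.52% higher and 19% lower, were under the 17.1% and 23.3% of all genes. When each array's median was subtracted, 2 were higher and 9 lower, with a median of -0.14. The 2 that rose did so by over 2-fold: Lpl, lipoprotein lipase, had 6.49, 6.29 and 6.32 in ShSuz12 and 4.78, 4.34 and 4.29 in control cells (1.90, adjusted p = 1.66e-05 from limma), and Sod3, an extracellular superoxide dismutase, had 7.24, 7.21 and 7.22 in ShSuz12 and 5.67, 5.71 and 5.72 in control cells (1.53, adjusted p = 2.84e-07 from limma). Decreases were small, at -0.36 for the inhibitor of differentiation Id2, -0.30 for Scd2 and -0.28 for Fasn, enzymes of fatty acid synthesis, and -0.22 for the zinc finger factor Klf15, whose dimmest probe set was not called (0.07). All 6 adipocyte markers were under the array median and none was called as deposited, while 3 were lower with median subtraction (list means 3.92 to 4.00 on the ShSuz12 arrays and 4.01 to 4.04 on the control arrays).

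The unfolded protein and integrated stress responses, in which Ddit3 and Cebpg take part with ATF4, held genes that rose and genes that fell. Of 40 measured genes, 9 (22.5%) were higher and 10 (25%) lower, none by 2-fold, with a median of -0.02. These shares are near the 17.1% and 23.3% of all genes, so the counts are not a result about the stress response. Atf4, the central activator, had 11.94, 11.91 and 11.91 in ShSuz12, against 12.21, 12.26 and 12.28 in control cells, a decrease of 0.33 on the log2 scale (adjusted p = 0.00149 from limma). The ATF4 targets Slc7a5, an amino acid transporter (-0.76), Chac1, a glutathione-degrading enzyme (-0.54), and Mthfd2, a mitochondrial folate enzyme (-0.49), and the stress-induced chromatin protein Nupr1 (-0.47) also fell. Asns (0.05, adjusted p = 0.464 from limma), another ATF4 target, was not called, nor was Trib3, a CHOP target, by its brightest probe set (-0.02, adjusted p = 0.828). A dimmer Trib3 probe set was called lower (-0.27, adjusted p = 0.0151 from limma). Also uncalled in this list were Slc7a11 (-0.18), Psat1 (-0.12), Phgdh (-0.08), Shmt2 (-0.06), Slc3a2 (-0.01), Sesn2 (0.04) and Stc2 (0.15). Atf3 (0.90), a stress-induced repressor, Atf6 (0.70), a sensor of the endoplasmic reticulum, Ddit4 (0.62), an inhibitor of mTORC1, and Ero1b (0.45), an oxidase of protein folding, were higher. Second, dimmer probe sets of Atf6 (0.15) and Ero1b (-0.00) were not called, and Atf3 was under the array median in both groups. The number of genes lower went to 6 without ShSuz12 replicate 1, 5 without ShSuz12 replicate 2 and 6 without control replicate 2, and to 19 when each array's median was subtracted (8 higher), since that shifts every log2 fold change by -0.10.

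Genes that act on C/EBP factors differed in both directions. Of 29 measured regulators and degraders, 11 were higher and 6 lower, with 3 at least 2-fold higher and a median of 0.08. The shares were 37.9% higher and 20.7% lower, beside 17.1% and 23.3% of all genes. Over all genes, 3.82% were at least 2-fold higher. On the side of cytokine signalling, Il6st (gp130), the shared receptor subunit of the IL-6 family, had 12.63, 12.69 and 12.60 in ShSuz12, against 11.13, 11.30 and 11.26 in control cells (1.41, adjusted p = 1.71e-06 from limma). Its 3 other probe sets were called higher as well, at 1.27 to 1.59. Stat3, a direct activator of Cebpd transcription in several cell types, had 10.71, 10.88 and 10.98 in ShSuz12, against 9.85, 9.98 and 9.84 in control cells (0.97, adjusted p = 5.56e-05 from limma). Klf5, a zinc finger factor of proliferating crypts that acts with C/EBP beta and delta in mouse fat cells, rose by 1.05. Socs3, a feedback inhibitor of this pathway that was counted among the inflammatory targets, rose by 0.20.

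Genes of protein turnover and phosphorylation differed as well. Trib2 and Trib1, pseudokinases that bring C/EBP alpha to the ubiquitin ligase COP1 in mouse and human myeloid cells, had log2 fold changes of 1.63 and 0.85, and Fbxw7, a substrate receptor of another ubiquitin ligase, had 0.95. Trib2 had values of 7.54, 7.32 and 7.17 in ShSuz12 and of 5.60, 5.81 and 5.73 in control cells. A dimmer Trib2 probe set rose by less (0.45, adjusted p = 0.017 from limma). Dimmer Trib1 probe sets had 0.42, called higher, and 0.08, not called. Cop1 itself was lower, with 10.56, 10.59 and 10.68 in ShSuz12, against 10.96, 11.08 and 11.02 in control cells (-0.41, adjusted p = 0.00117 from limma), and its 2 other probe sets were lower too (-0.63 and -0.43). Rps6ka3, a kinase that phosphorylates C/EBP beta in mouse cells, fell by 0.73, Cdk2, a binding partner of C/EBP alpha, by 0.38 and Nfkb1, the p105 and p50 subunit of NF-kappaB, by 0.28. With median subtraction the list stood at 8 higher and 12 lower with a median of -0.02, so its balance of directions depends on the scaling. Without ShSuz12 replicate 1, or without control replicate 2, the genes at least 2-fold higher numbered 5.

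Among 20 measured bZIP factors that can pair with C/EBP proteins or share their sites, 7 were higher and 4 lower, none by 2-fold, with a median of -0.14. As shares, 35% were higher and 20% lower, beside 17.1% and 23.3% of all genes. Atf3 (0.90), Nfil3 (0.85), a repressor induced by cytokines, and the AP-1 members Fos (0.79) and Fosl1 (0.68) rose most. Of these, Atf3 and Fosl1 were under the array median in both groups. Fos had 8.19, 7.98 and 8.06 in ShSuz12, against 7.09, 7.22 and 7.55 in control cells, without overlap, while a dimmer Fos probe set had 0.00. Jdp2 (-0.55), an AP-1 repressor, Atf5 (-0.46), Atf4 (-0.33) and Tef (-0.28), a circadian PAR bZIP factor, fell. The number lower was 2 without ShSuz12 replicate 2, 10 with median subtraction and 7 after a second quantile normalization.

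Markers of other cell types were read on the same arrays, since the C/EBP targets above are also made by stromal and blood cells. Higher were 46.7% of fibroblast, 18.2% of epithelial and 0% of leukocyte markers, beside 17.1% of all genes. Lower were 13.3%, 13.6% and 21.4%, beside 23.3% of all genes. The epithelial share higher and the leukocyte share lower are near those of all genes, so these counts are not results about the cell types. Of 15 fibroblast markers, 7 were higher and 2 lower, and the mean of the list was 8.54 to 8.58 on the ShSuz12 arrays and 7.87 to 7.90 on the control arrays, with Lum (2.46), Col1a2 (2.34), Col3a1 (2.33) and Pdgfrb (1.66) higher and Acta2 (-0.66) and Tagln (-0.35) lower. The dimmer Pdgfrb probe sets were called higher by less, at 0.49 each. What part the fibroblast markers had in the changes of Cebpb, Cebpd and the target genes was not tested. Of 22 measured markers of intestinal epithelium, 4 were higher (Lgr5 3.59, Cdx2 1.56, Krt19 1.19, Gata4 0.33) and 3 lower (Cdh1 -0.76, Krt8 -0.41, Gata6 -0.35), with list means of 5.94 to 6.05 in ShSuz12 and 5.74 to 5.78 in control cells. Dimmer probe sets of Gata4 (-0.03), Gata6 (-0.04) and Cdh1 (-0.21) were not called. Cdh1, the epithelial cadherin (11.82 in ShSuz12 and 12.58 in control cells on average), Krt8, Gata6 and Gata4 were above the array median in both groups, whereas 15 of the 22, the defining markers Epcam and Vil1 included, were under the array median in both groups. All 14 measured leukocyte markers were under the array median in both groups, with list means of 4.31 to 4.38 in ShSuz12 and 4.41 to 4.44 in control cells, 0 of them higher and 3 lower (Cd68 -0.32, Itgam -0.25, Cd4 -0.22). The number lower was 0 without ShSuz12 replicate 3 or control replicate 1 and 1 with any other single array left out, 0 with the methods' t-test (1 higher) and 7 with median subtraction, which also brought the epithelial markers to 3 higher and 6 lower.

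By its pattern over the 6 arrays, the gene most like Cebpd (probe set 1368813_at, the largest change in the family) was Robo1, a guidance receptor, with a Pearson r of 0.9991. Hoxb13, a homeobox gene, followed with 0.9988 and Ifitm2, an interferon-induced membrane protein, with 0.9983. Their log2 fold changes were 1.57, 0.85 and 0.34. Since any gene with a clean difference between the groups correlates with Cebpd, 1015 of 14217 genes had an r over 0.95, and the order of the first 3 rests on small differences among 3 arrays a group.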

How the data were processed

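Total RNA of 3 ShSuz12 and 3 control IEC-6 samples was measured on Affymetrix arrays. The deposited log2 values were made by the authors with RMA, which corrects background, normalizes between arrays and summarizes each probe set. The paper names the Flexarray software, with its version, for this work and gives no separate version of RMA. Present calls were not used here.

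After 57 control probe sets were left out, 31042 probe sets were compared by limma 3.58.1 (lmFit, eBayes, two-sided) under R 4.3.3 with Benjamini-Hochberg adjustment, with a threshold of 0.05. The fit was tested on simulated data. The platform annotation gave 1 symbol to 20826 probe sets and several to 436, and 9780 were unnamed here. A gene was counted by its brightest probe set, the highest mean over 6 arrays.

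Every C/EBP probe set was named, and in each list up to 4 called genes a direction with the largest change, beside inflammatory genes the study names. Slpi, C3, Hp, Il6, Cxcl2, Socs3, Asns, Trib3, Fbxw7, Trib1, Epcam and Vil1 were named after their values were seen. So were the uncalled genes Orm1, Crp, Il1b, Nos2, Tnf, Csf3, Ptgs2, Slc7a11, Psat1, Phgdh, Shmt2, Slc3a2, Sesn2 and Stc2. Members and lists were chosen with earlier results of these data known. Replicate numbers did not pair the samples. Alternatives were other tests, scalings, filters, thresholds and summaries of a gene's probe sets, the replicate number as a block and leaving out each array. The number of arrays limits the precision. Promoter letters were searched on both strands. Figures were drawn with matplotlib 3.10.9.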

Additional observations from a re-analysis of the deposited data

How the results depend on the processing

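Each probe set of Cebpb, Cebpd, Cebpa and Cebpz stayed on its side of the threshold under every alternative run for it, whereas the calls of Cebpe and Cebpg were lost, and Ddit3 gained, under some. Among the fits of single C/EBP probe sets, 183 kept their side of the threshold, 22 lost the call and 8 gained it. No called value changed sign, while uncalled values of Cebpa and Cebpz crossed 0 in some fits. The number of C/EBP probe sets lower was 1, that of Ddit3, with the methods' t-test after Benjamini-Hochberg and 0 at an adjusted p under 0.01, and ran from 0 to 2 with 1 array left out. The number at least 2-fold higher was 1 after a second quantile normalization and 0 to 1 with 1 array left out, while the number higher was 3 in every fit over probe sets and 2 of 7 in the fits with 1 value a gene. With the replicate block, 3 were higher and 2 lower, and Cebpe had an adjusted p of 0.0624 from limma. Samples of the same number did not deviate together (r of 0.02, -0.04 and -0.06), so the numbers are not taken as pairs.

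Subtracting each array's median moved all log2 fold changes by -0.10, cut the higher share of called probe sets to 23.3% from 43.2%, and gave 11752 lower over all probe sets (194 by 2-fold). Above percentile 60 of the array, where 7 C/EBP probe sets stayed, 2949 were higher and 557 at least 2-fold higher. With the brightest probe set of each gene refitted alone, 2663 genes were higher and 3767 lower, 543 and 60 of them by 2-fold. The mean over a gene's probe sets gave 2555 and 3936, with 500 and 55 by 2-fold. At an adjusted p under 0.01, 3475 probe sets were lower. With 1 array left out, 3960 to 4490 were higher, 4572 to 5801 lower, 943 to 974 at least 2-fold higher and 119 to 130 at least 2-fold lower, and Suz12 ran from -2.83 to -2.67. The filtered and gene-level fits hold fewer features by construction; the cause of the other differences was not tested. Cebpe, the third Cebpd probe set and the Cebpa probe sets 1384126_a_at and 1369658_at were too dim for either percentile filter. Nothing here shows that they were above background.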
